A study of Homo sapiens with 18 samples.

Results

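SERPINB9 and 7 related serpins were followed through 3D cultures of breast cancer cells in which JAG1, the gene of the Notch ligand Jagged1, was removed, put back or silenced. The 8 genes (SERPINB9, SERPINB1, SERPINB6, SERPINB8, SERPINB2, SERPINB5, SERPINB7 and SERPINE2) were taken by symbol out of 21411 genes in the count table, and the question was whether the difference that SERPINB9 shows with JAG1 extends to its relatives. SERPINB9 itself was chosen by its fold change and adjusted p in an earlier reading of the 3 comparisons of more with less JAG1, so its values there are given as a description without a test.

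Serpins are protease inhibitors that work as a bait: the protease cuts an exposed loop, the serpin folds over and the enzyme is trapped in a covalent complex. Clade B serpins lack a classical secretion signal and act mostly inside the cell, where SERPINB9 blocks granzyme B, the killer protease of cytotoxic lymphocytes. SERPINB9 is best known from lymphocytes, dendritic cells and tumor cells, which it can protect from granule-mediated killing.

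Messenger RNA was sequenced from MDA-MB-231 cells, an established triple-negative breast cancer line, grown as spheroids in Matrigel for 7 days after seeding 50000 cells per well. The 18 libraries came from 6 conditions in triplicate. Jag1WT stands for the unedited parental cells. Jag1KO stands for cells whose JAG1 was disrupted with Cas9, pooled from several single-cell clones. Jag1KO + rescue and Jag1KO + ctrl are Jag1KO cells that carried a plasmid with Jagged1 cDNA or the empty plasmid, both kept under G418 selection. siCtrl and siJag1 are parental cells that received a nontargeting siRNA or siRNA against Jagged1 7 hours before seeding. Jag1KO cells keep an edited JAG1 transcript and the rescue counts include reads of the plasmid's cDNA, so JAG1 mRNA is not a measure of Jagged1 protein in those groups. Nothing in the labels ties the replicates to separate batches or days.

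Between 10330581 and 18327890 reads per library were counted on genes. JAG1 ran from 433 to 585 CPM (reads of a gene scaled to library size and normalized between libraries by the authors) in Jag1WT and from 116 to 205 CPM in Jag1KO. It ran from 534 to 657 CPM in Jag1KO + rescue against 110 to 147 CPM in Jag1KO + ctrl, and from 441 to 626 CPM in siCtrl against 131 to 203 CPM in siJag1, so that no library contradicted its label. VIM (2184 to 4946 CPM) and AXL (810 to 1355 CPM) were high and ESR1 had at most 2 reads per library, as the line's identity asks. Of the other markers listed as low, PGR had at most 26 and CDH1 at most 17 reads per library. EPCAM ran from 5.18 to 8.99 CPM and ERBB2 from 32.5 to 60.0 CPM, so these 2 were detected in every library. The lymphocyte markers (5 of 6 in the table) summed to at most 0.326 CPM in any library. The cell cycle level, the mean log2(CPM + 1) of 97 S phase and G2/M genes, set 3 libraries apart from the others of their groups. It was 4.11 in Jag1KO replicate 1 against 5.55 and 5.67, 4.41 in Jag1KO + ctrl replicate 3 against 5.72 and 6.09, and 6.07 in siJag1 replicate 2 against 4.32 and 4.41. Where leaving out the library concerned moved a member's log2 fold change in a comparison by more than 0.1, the value without it is given as well. The counts of genes called also moved, from 91 to 935 of 12827 genes in Jag1WT against Jag1KO without Jag1KO replicate 1 and from 1 to 3659 of 12734 in the rescue comparison without Jag1KO + ctrl replicate 3.

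SERPINB9 lies on chromosome 6 (2887270 to 2903309, minus strand, RefSeq on GRCh38.p14), between SERPINB1 (2832332 to 2841863) and SERPINB6 (2948159 to 2971793), and all 3 are read in the same direction. The other clade B members lie together on the plus strand of chromosome 18 and SERPINE2 on chromosome 2. The 250 bases before an annotated start of the 3 neighbouring genes, and of SERPINB2, the relative whose level varied most, are printed below in lower case and 5′ to 3′. Capitals mark 3 motifs searched on both strands: TGGGAA, the core bound by the Notch effector RBPJ, TGANTCA, the AP-1 site, and TATAAA, the box of that name. For SERPINB6, 4 starts were searched, of which the most upstream is shown. The gene is annotated up to 2971793, so most of the window shown lies inside it. The windows are chr6:2903310-2903559 for SERPINB9, chr6:2841864-2842113 for SERPINB1 and chr6:2971568-2971817 for SERPINB6 (all minus strand), and chr18:63887455-63887704 for SERPINB2 (plus strand).
SERPINB9: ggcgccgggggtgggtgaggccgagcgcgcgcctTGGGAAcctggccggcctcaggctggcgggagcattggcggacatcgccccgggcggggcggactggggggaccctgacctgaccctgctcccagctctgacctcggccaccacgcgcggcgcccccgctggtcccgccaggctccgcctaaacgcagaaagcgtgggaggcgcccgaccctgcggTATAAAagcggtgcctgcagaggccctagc
SERPINB1: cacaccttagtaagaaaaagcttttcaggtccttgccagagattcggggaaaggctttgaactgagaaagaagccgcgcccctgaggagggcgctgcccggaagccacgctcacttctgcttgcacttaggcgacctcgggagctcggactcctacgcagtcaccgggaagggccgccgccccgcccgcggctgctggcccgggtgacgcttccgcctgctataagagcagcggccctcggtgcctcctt
SERPINB6: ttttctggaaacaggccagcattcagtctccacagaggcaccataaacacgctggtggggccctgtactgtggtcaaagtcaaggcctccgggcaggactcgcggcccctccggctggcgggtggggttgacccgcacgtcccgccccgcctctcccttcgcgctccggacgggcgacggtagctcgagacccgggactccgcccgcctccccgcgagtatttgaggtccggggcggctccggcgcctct
SERPINB2: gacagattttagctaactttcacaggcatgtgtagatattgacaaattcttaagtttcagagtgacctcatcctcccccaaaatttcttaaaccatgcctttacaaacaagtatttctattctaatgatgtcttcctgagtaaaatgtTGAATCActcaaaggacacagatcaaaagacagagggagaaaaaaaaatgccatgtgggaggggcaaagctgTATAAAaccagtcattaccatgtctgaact

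The SERPINB9 window holds TGGGAA 216 bases and TATAAA 30 bases before the start. SERPINB1 and SERPINB6 share the CG-rich makeup of SERPINB9 (21 and 26 CG pairs against 27) and hold none of the 3 motifs in the windows shown, nor does SERPINB6 in its other 3. SERPINB2 has 0 CG pairs, a TATAAA 30 bases before its start, where that of SERPINB9 also lies, and TGANTCA 102 bases before it. Of the other members, SERPINB7 holds TGGGAA in 2 of its 3 start windows, TGANTCA in 2 and TATAAA in 1. SERPINB8 holds TGANTCA at 185 and 28 bases and TATAAA, in overlapping matches, at 142 and 140 bases. SERPINB5 holds TGANTCA at 146 bases, and SERPINE2 holds none of the 3 motifs in its 2 windows. Over 27305 genes of the promoter table, 21.1% hold TGGGAA in at least 1 such window, 6.60% TGANTCA and 11.1% TATAAA. Single matches of TGGGAA are thus common, and no match of the 3 motifs is shown to be a bound site.

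SERPINB9 (Entrez gene 5272) had 2.28, 2.57 and 2.15 times more mRNA, as a ratio of mean CPM, in Jag1WT than in Jag1KO, with the rescue than with the empty plasmid and in siCtrl than in siJag1. Jag1WT libraries held 33.5, 41.2 and 31.6 CPM, and Jag1KO libraries 15.7, 17.7 and 13.3 CPM. With the rescue plasmid the 3 libraries held 37.8, 36.2 and 38.2 CPM, and with the empty plasmid 13.9, 10.5 and 19.1 CPM. These are bulk cultures, in which fewer cells with a transcript and less of it per cell cannot be told apart. The siCtrl libraries held 37.8, 46.3 and 34.6 CPM, and the siJag1 libraries 20.0, 17.9 and 17.4 CPM. In each comparison the groups did not overlap, and the lowest of the 9 libraries with more JAG1 lay above the highest of the 9 with less.

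**Figure D1:**
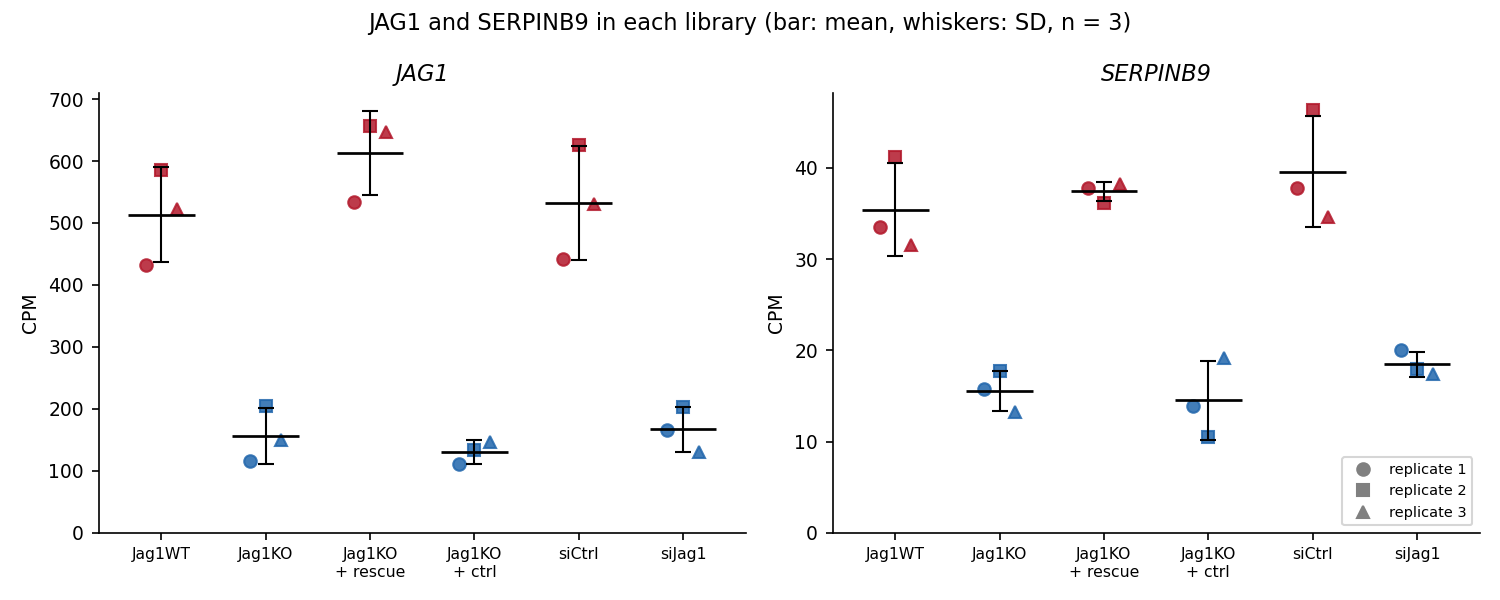
JAG1 (left) and SERPINB9 (right) in CPM in each of the 18 libraries, by condition; points are replicates, bars the group mean and whiskers the SD (n = 3), with red for the groups with more and blue for those with less JAG1. Every red SERPINB9 point is at or above 31.6 CPM and every blue one at or below 20.0 CPM.

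The mean level was 35.4 ± 5.09 CPM (SD, n = 3 here and below) for Jag1WT and 15.6 ± 2.21 CPM for Jag1KO, 37.4 ± 1.07 CPM with the rescue and 14.5 ± 4.33 CPM with the empty plasmid, and 39.6 ± 6.08 CPM in siCtrl and 18.4 ± 1.38 CPM in siJag1. The lower group thus kept 43.9%, 38.8% and 46.6% of the SERPINB9 level of the higher one, where JAG1 mRNA kept 30.5%, 21.3% and 31.3%. The log2 fold changes fitted by edgeR were 1.18, 1.36 and 1.11, which ranked 69 of 12928, 87 of 12894 and 32 of 12823 genes from the highest. Fitted together, the 3 comparisons gave a mean log2 fold change of 1.21 (2.31-fold), rank 19 of 12803. Left out together, the 3 libraries that stand apart in cell cycle level moved that mean to 1.29, and the rescue value was 1.61 without Jag1KO + ctrl replicate 3. Of the same 12803 genes, 12 had every library with more JAG1 above every library with less: CDC42SE1, F2RL1, GRB10, JAG1, KLF7, LITAF, SAT1, SERPINB9, SFTA1P, SPHK1, TLE1 and VEGFA. This list was drawn up after the values were seen and contains SERPINB9, which was chosen on these comparisons, so it is a description.

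Between groups whose JAG1 was not changed on purpose, SERPINB9 had a log2 fold change of −0.11 in Jag1KO + ctrl against Jag1KO, which was −0.36 without Jag1KO + ctrl replicate 3, and of 0.15 in siCtrl against Jag1WT. The groups overlapped in both. These are the libraries on which SERPINB9 was chosen, and a gene chosen as low in the former pair and high in the latter is likely to differ little within each pair, so these values are a description too. Of all genes, 0% (0 of 13004 and 0 of 12847) were called there by an adjusted p below 0.05 and a fold above 1.5, and 5.81% and 1.38% had an unadjusted p below 0.05. Of the 6 tested relatives, 0 were called by edgeR, DESeq2 or limma on all 6 libraries, and 0 had an unadjusted p below 0.05 in either. With the replicate block, which paired siCtrl with Jag1WT, 1 gene of the table and 0 relatives were called there. No tested relative had groups without overlap, where 6.04% of genes were higher and 4.04% lower in Jag1KO + ctrl, and 3.4% higher and 2.9% lower in siCtrl. Without Jag1KO + ctrl replicate 3, SERPINB2 was called lower in Jag1KO + ctrl than in Jag1KO (log2 fold change −2.71, edgeR adjusted p = 0.0437), as 2.35% of 12874 genes were called in that fit.

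The genes whose pattern over the 18 libraries was most like that of SERPINB9, by Pearson correlation of log2(CPM + 1) among 12802 genes, were JAG1 (0.948), LITAF (0.931), SPHK1 (0.918), CDC42SE1 (0.913) and SFTA1P (0.908). LITAF encodes an endosomal membrane protein and SPHK1 the kinase that makes sphingosine-1-phosphate. LITAF lay between 37.9 and 48.4 CPM in the libraries with more JAG1 and between 27.9 and 33.1 CPM in those with less. The most opposite patterns were those of the adhesion receptors ADGRF5 (−0.900) and ADGRF1 (−0.891) and of GAS6 (−0.880), the ligand of AXL. The points share libraries and groups, and SERPINB9 was chosen on these libraries by its difference with JAG1. Its likeness to JAG1 was in large part given by that choice, so the values describe likeness only. Among the relatives SERPINB6 came closest (0.634, rank 542), followed by SERPINB1 (0.548, rank 1382) and SERPINB2 (0.444, rank 2450). SERPINB7 (0.374, rank 3182), SERPINB8 (rank 4844) and SERPINE2 (0.118, rank 5537) were further away.

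Per kilobase of gene length SERPINB9 was a minor serpin of these cells. In Jag1WT the levels were 551 ± 179 RPKM for SERPINB2, 46.0 ± 2.59 for SERPINE2, 41.3 ± 3.07 for SERPINB1, 28.3 ± 0.936 for SERPINB6, 12.9 ± 3.14 for SERPINB8, 7.93 ± 1.14 for SERPINB9, 0.633 ± 0.0933 for SERPINB7 and 0.0423 ± 0.0169 for SERPINB5. In that order SERPINE2 and SERPINB1 overlapped between libraries, and the other neighbours did not. In Jag1KO, SERPINB9 lay at 3.48 ± 0.494 RPKM and kept its place.

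None of the 6 relatives that could be tested was called with JAG1. In Jag1WT against Jag1KO 0 of 6 passed an adjusted p below 0.05 and a fold above 1.5 in edgeR's quasi-likelihood test, where 0.704% of 12928 genes did. In Jag1KO + rescue against Jag1KO + ctrl 0 of 6 passed, against 0.00776% of 12894 genes. In siCtrl against siJag1 0 of 6 passed, against 0.0156% of 12823 genes (2 genes, and 4 in the fit that pairs replicates by number). SERPINB9 did not pass this edgeR test in the rescue or siRNA comparison either. The edgeR counts of calls there thus do not set its relatives apart from it. DESeq2 also called 0 of 6 in each, where it called 1.82%, 12.3% and 0.195% of all genes, and limma 0 of 6 in each, where it called 0.719%, 0.0155% and 0% of them. The rescue background in particular depended on the fit, with 16.7% of genes called when all 18 libraries shared 1 estimate of the spread and 28.7% without Jag1KO + ctrl replicate 3. At an unadjusted p below 0.05 there were 1, 1 and 2 relatives, all higher with JAG1, where the shares over all genes were 8.82%, 30.8% and 3.83%. The median log2 fold change of the 6 was 0.06, 0.21 and 0.09, and over all genes −0.0088, −0.0024 and −0.0073. In the joint fit 0 of 6 were called for the mean of the 3 comparisons (0.937% of all genes, 0.351% higher) and 0 of 6 for a difference among them (4.15%). At an unadjusted p below 0.05 the mean had 2 relatives, SERPINB6 and SERPINB1, against 26.6% of all genes.

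**Figure D2:**
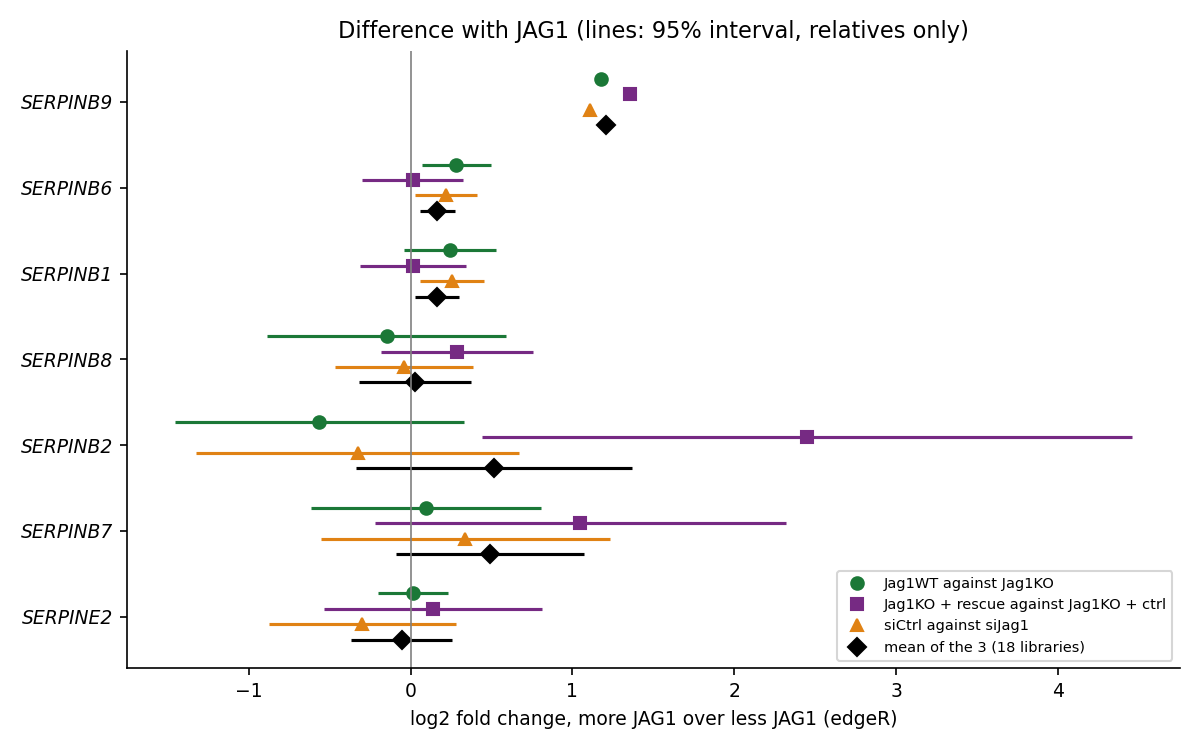
Log2 fold change of each tested serpin, more JAG1 over less JAG1, in the 3 comparisons (green, purple and orange) and as their mean in a fit of all 18 libraries (black); lines are 95% intervals, drawn for the relatives only. SERPINB9 lies between 1.11 and 1.36, SERPINB6 and SERPINB1 between 0.01 and 0.28, and the rescue intervals of SERPINB2 and SERPINB7 are the widest.

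The 2 chromosomal neighbours of SERPINB9 had small differences that the adjusted test did not call. SERPINB6 (Entrez gene 5269), an inhibitor of trypsin-like proteases and cathepsin G, held 111, 118 and 112 CPM in Jag1WT against 89.5, 97.3 and 92.4 CPM in Jag1KO. It held 112, 120 and 113 CPM in siCtrl against 99.9, 98.8 and 98.4 CPM in siJag1. In these 2 comparisons the groups did not overlap. With the rescue plasmid it held 87.6, 110 and 106 CPM against 98.3, 103 and 97.0 CPM, and the groups overlapped, the lowest library being a rescue one. The log2 fold changes were 0.28 (95% interval 0.07 to 0.50, edgeR adjusted p = 0.380), 0.22 (0.03 to 0.41, edgeR adjusted p = 0.969) and, in the rescue, 0.01 (−0.30 to 0.33, edgeR adjusted p = 0.951). The mean of the 3 was 0.16 (95% interval 0.06 to 0.27, 1.12-fold, edgeR adjusted p = 0.0952). With DESeq2 the adjusted p of that mean was 0.0166 at a log2 fold change of 0.17, still below the fold threshold.

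SERPINB1 (Entrez gene 1992), which inhibits neutrophil elastase, proteinase 3 and cathepsin G, held 126, 141 and 146 CPM in Jag1WT against 101, 128 and 118 CPM in Jag1KO. It held 132, 145 and 143 CPM in siCtrl against 118, 119 and 116 CPM in siJag1. The groups overlapped by 1 library in the knockout comparison and did not overlap in the siRNA comparison. In the rescue it held 110, 131 and 143 CPM against 120, 131 and 126 CPM, with the lowest and the highest library both in the rescue group. The log2 fold changes were 0.25 (95% interval −0.04 to 0.53, edgeR adjusted p = 0.622), 0.26 (0.06 to 0.45, edgeR adjusted p = 0.969) and, in the rescue, 0.02 (−0.31 to 0.34, edgeR adjusted p = 0.947). The mean was 0.16 (0.03 to 0.30, 1.12-fold, edgeR adjusted p = 0.136), and with DESeq2 its adjusted p was 0.0759 at a log2 fold change of 0.18. Over the alternatives other than leaving out 1 library, the lowest adjusted p of that mean was 0.0394 (edgeR or limma). The log2 fold changes there were 0.14 to 0.18, below the fold threshold. Over all genes tested, groups without overlap and higher with JAG1 made up 7.22%, 16.5% and 5.15% of the 3 comparisons, and among the 6 relatives 1, 1 and 2 genes. Those were SERPINB6 in the knockout, SERPINB2 in the rescue and both SERPINB1 and SERPINB6 in the siRNA comparison. In the other direction, 6.61%, 16% and 5.33% of genes and 0 of the 6 tested relatives were separated. Without Jag1KO replicate 1 the knockout value of SERPINB1 was 0.15 (edgeR adjusted p = 0.411).

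**Figure D3:**
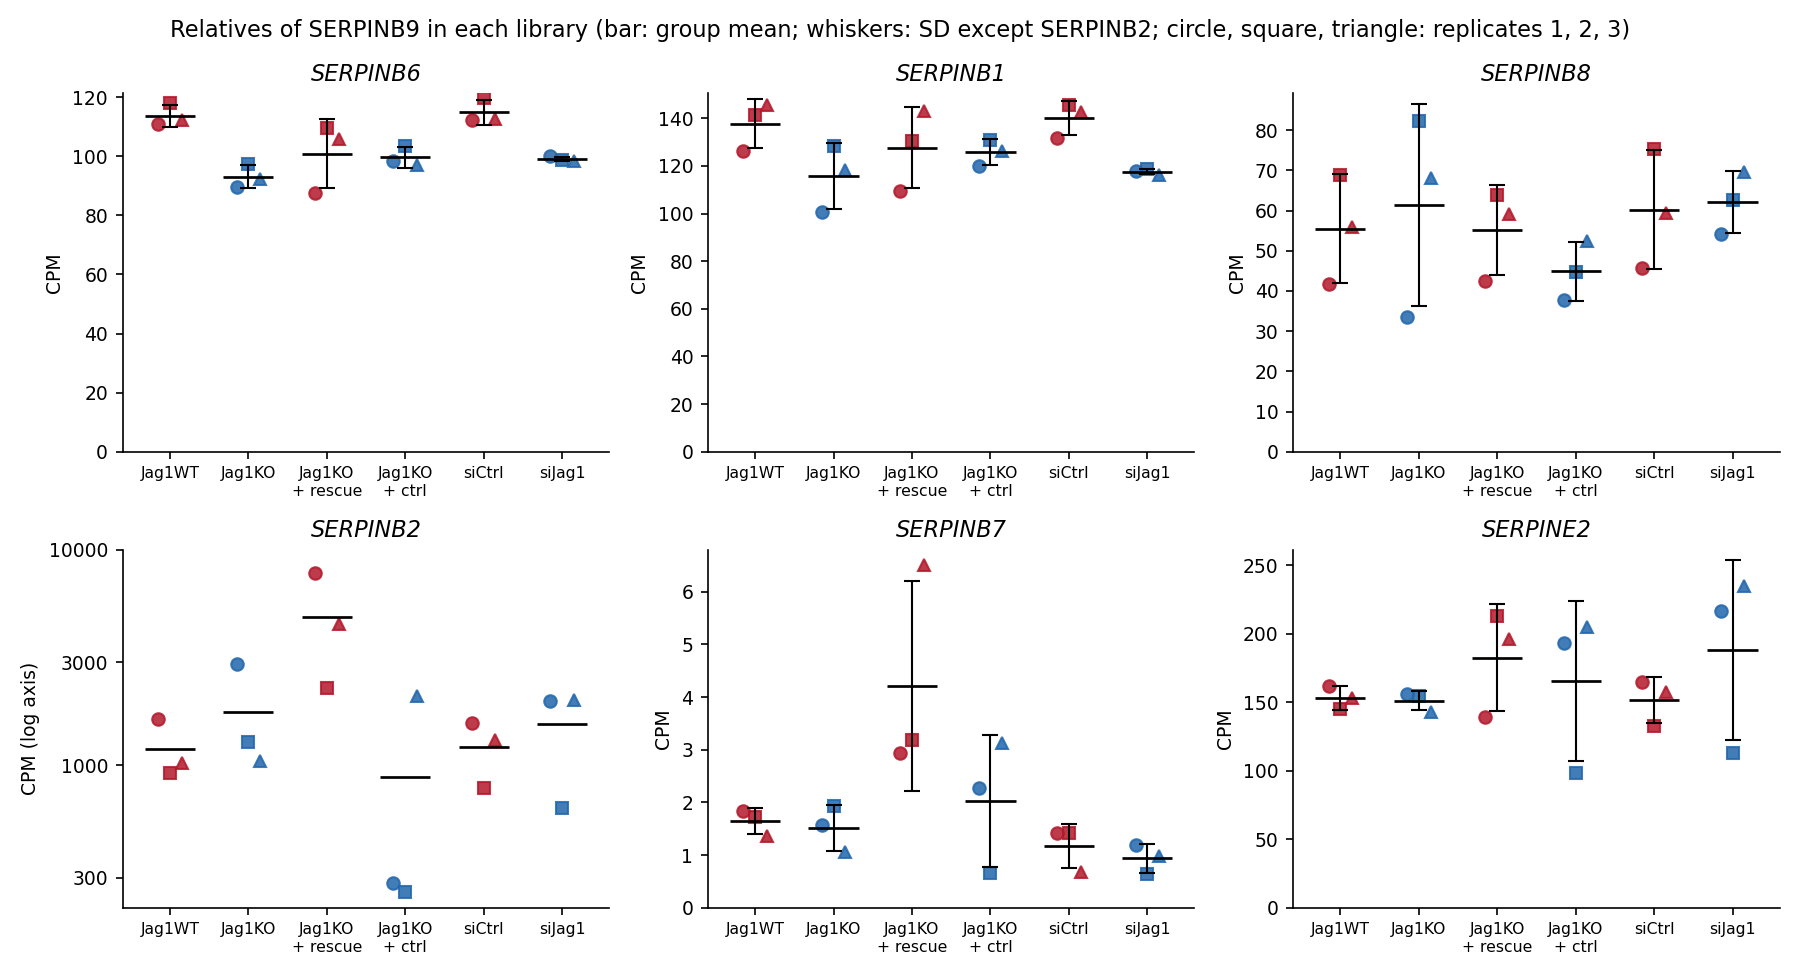
The 6 tested relatives in CPM in each library by condition (linear axes from 0, except a log axis for SERPINB2). Points are replicates (circle, square and triangle for 1, 2 and 3), bars group means and whiskers the SD, which is not drawn for SERPINB2. SERPINB6 and SERPINB1 stay within 87.6 to 120 and 101 to 146 CPM, SERPINB2 spans 259 to 7777 CPM, and replicate 1 is lowest in each group for SERPINB8.

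Within 500 kb of SERPINB9 the table held 19 genes, 15 of which could be tested in at least 1 comparison. Apart from SERPINB9, 0 of 14, 0 of 13 and 0 of 13 were called in the knockout, rescue and siRNA comparisons. Their median log2 fold changes were 0.12, 0.16 and 0.22. A list of 11 neighbours on chromosome 6 gave 10, 9 and 9 tested genes, 0 called, and 1, 3 and 0 with an unadjusted p below 0.05. Over all genes the shares with such a p were 8.82%, 30.8% and 3.83%. The most abundant of the listed neighbours were RIPK1, WRNIP1, NQO2 and GMDS. RIPK1, the death-receptor kinase, had log2 fold changes of 0.07, 0.52 (edgeR adjusted p = 0.120 in the rescue) and 0.07, and NQO2, a quinone reductase, 0.17, 0.16 and 0.22. The values of WRNIP1 were 0.0057, 0.16 and 0.11 and those of GMDS −0.29, −0.21 and −0.12. The largest values among the neighbours, named after they were seen, were those of the solute carrier SLC22A23 in Jag1WT against Jag1KO (0.97, edgeR adjusted p = 0.544) and of the tubulin TUBB2A in the rescue (0.98, edgeR adjusted p = 0.109).

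**Figure D4:**
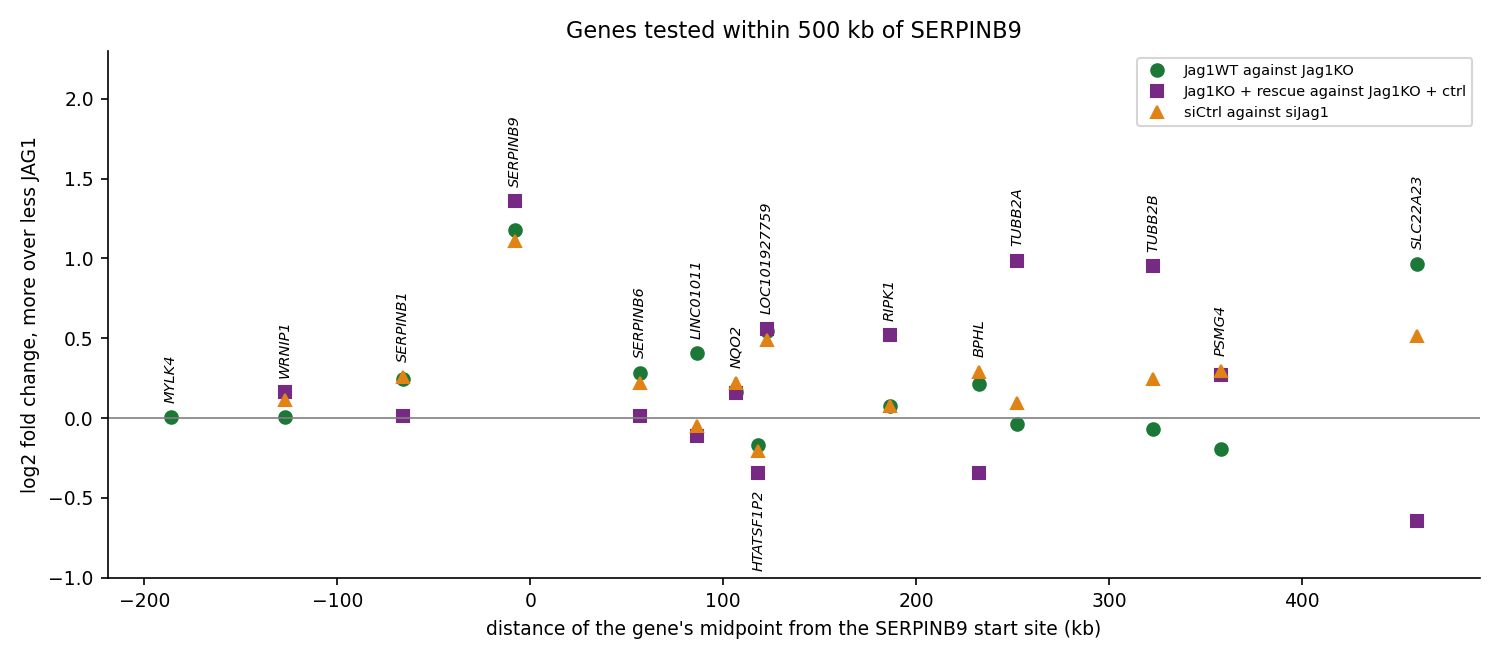
Log2 fold change (more over less JAG1) of the genes tested within 500 kb of SERPINB9, against the distance of each gene's midpoint from the SERPINB9 start site in kb; colours and shapes give the 3 comparisons. SERPINB9, which was chosen by its fold change in these comparisons, is the only gene above 1 in each, so its standing out is a description. SERPINB1 and SERPINB6 on either side lie between 0.01 and 0.28.

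The pseudogene SERPINB9P1, between SERPINB1 and SERPINB9, is named here after its values were seen. It had 4, 7 and 8 reads in Jag1WT against 1, 1 and 2 in Jag1KO, and 5, 7 and 6 in siCtrl against 1, 1 and 0 in siJag1. In the rescue it had 2, 2 and 3 reads against 3, 1 and 0. The groups did not overlap in the knockout and siRNA comparisons and overlapped in the rescue. It was too low to be tested. Only uniquely mapped reads were counted, so reads that fit both it and SERPINB9 equally well are in neither count.

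SERPINB8 (Entrez gene 5271), an intracellular inhibitor of the proprotein convertase furin, did not separate by JAG1. It held 41.8, 68.9 and 56.0 CPM in Jag1WT against 33.5, 82.4 and 68.1 CPM in Jag1KO, 42.6, 63.8 and 59.1 CPM with the rescue against 37.8, 44.6 and 52.5 CPM with the empty plasmid, and 45.8, 75.4 and 59.5 CPM in siCtrl against 54.1, 62.7 and 69.7 CPM in siJag1. The groups overlapped each time. The log2 fold changes were −0.15 (95% interval −0.88 to 0.59), 0.29 (−0.18 to 0.76) and −0.04 (−0.47 to 0.39), with edgeR adjusted p of 0.930, 0.341 and 0.990. Without Jag1KO replicate 1 the knockout value was −0.45 (edgeR adjusted p = 0.156), and without Jag1KO + ctrl replicate 3 the rescue value was 0.42 (edgeR adjusted p = 0.152). Replicate 1 was the lowest library in 6 of 6 groups, seen after the fact. Of 12803 genes, 6.15% had the same replicate number lowest in every group: replicate 1 in 138, replicate 2 in 598 and replicate 3 in 51. Whether replicate numbers tie all 6 groups together was not tested.

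SERPINB2 (Entrez gene 5055), plasminogen activator inhibitor type 2, which blocks urokinase, was the most abundant and the most variable member, with 30.1-fold between its lowest and highest library. Jag1KO + rescue held 7777, 2283 and 4527 CPM, and Jag1KO + ctrl 285, 259 and 2093 CPM. The groups did not overlap, but replicate 3 of Jag1KO + ctrl lay close to the lowest rescue library. The log2 fold change was 2.45 (95% interval 0.44 to 4.46, 5.46-fold, edgeR adjusted p = 0.124), rank 9 of 12894. Without Jag1KO + ctrl replicate 3 it was 4.15 (edgeR adjusted p = 0.00348), and with all 18 libraries in 1 fit it was 2.44 (edgeR adjusted p = 0.0260), and in both SERPINB2 was called higher with the rescue plasmid. In those fits 28.7% and 16.7% of all genes were called, so that the call was a common one.

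In the other comparisons SERPINB2 had negative log2 fold changes and was not called. Jag1WT held 1638, 918 and 1024 CPM against 2951, 1287 and 1041 CPM in Jag1KO (log2 fold change −0.56, 95% interval −1.45 to 0.33, edgeR adjusted p = 0.718). Without Jag1KO replicate 1 this was 0.023. The siCtrl libraries held 1564, 784 and 1310 CPM against 1991, 635 and 2005 CPM in siJag1 (log2 fold change −0.33, 95% interval −1.32 to 0.67, edgeR adjusted p = 0.974). Without siJag1 replicate 2 this was −0.70 (edgeR adjusted p = 0.726). The groups overlapped in both. The test that the 3 comparisons are equal gave an edgeR adjusted p of 0.123 for SERPINB2, and 0.00304 without Jag1KO + ctrl replicate 3, where 19.3% of all genes were called. The mean of the 3 was 0.52 (95% interval −0.34 to 1.37, edgeR adjusted p = 0.402). It was 1.08 without Jag1KO + ctrl replicate 3 (edgeR adjusted p = 0.0208) and 1.16 without the 3 libraries that stand apart in cell cycle level (edgeR adjusted p = 0.00319), where 6.72% and 6.82% of all genes were called, so the call on SERPINB2 depended on which libraries were kept.

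Within groups, libraries with a higher cell cycle level had less SERPINB2. Over the 18 libraries, with group means removed, its log2(CPM + 1) had a Pearson r of −0.910 with the cell cycle level (two-sided exact permutation of libraries within groups, p = 8.57e-05, adjusted p = 0.000600 for the 7 relations computed) and a Spearman rho of −0.936 (exact permutation p = 0.000107, adjusted p = 0.000750). This permutation takes the groups as independent of each other. Replicate numbers paired siCtrl with siJag1 and with Jag1WT, and replicate 2 was the lowest SERPINB2 library in 5 groups. These permutation p-values, and those of the other members, may therefore be too small. Without siJag1 replicate 2 and Jag1KO + ctrl replicate 2, which were farthest from the median cell cycle level, the r of SERPINB2 was −0.891. Such relations were widespread in these libraries: of 12706 genes outside the cell cycle list, 6.62% had an r at least as far from 0 as that of SERPINB2. The 3 libraries of Jag1KO + ctrl show it in their values: the library with the lowest cell cycle level, replicate 3 at 4.41, had the 2093 CPM. Between groups the cell cycle level overlapped, from 4.18 to 5.02 in Jag1KO + rescue and from 4.41 to 6.09 in Jag1KO + ctrl, and its part in the SERPINB2 difference was not tested. Of the macrophage markers, all 4 in the table, the summed level ran from 96.3 to 189 CPM in Jag1KO + rescue and from 147 to 217 CPM in Jag1KO + ctrl, nearly all of it CD68, while LYZ had at most 8 reads in any library.

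**Figure D5:**
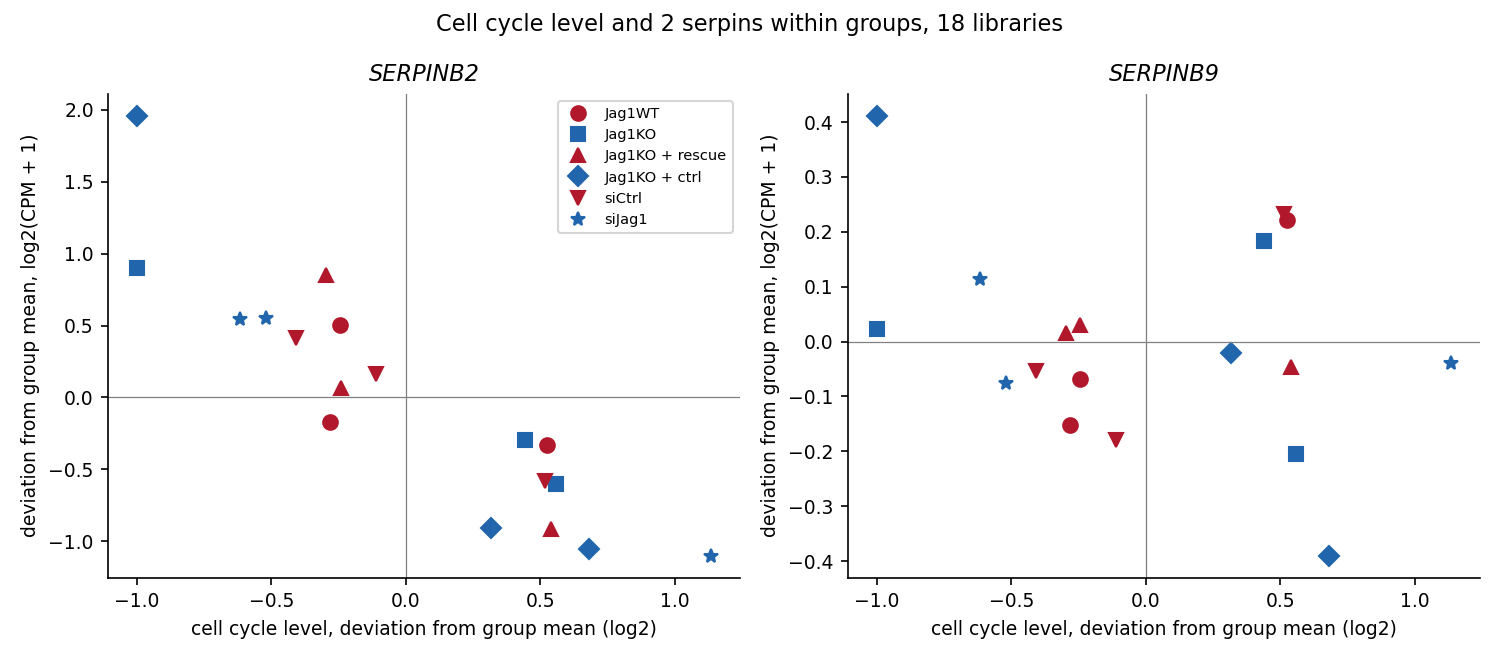
SERPINB2 (left) and SERPINB9 (right) against the cell cycle level in the 18 libraries, both axes as deviations from the group mean on the log2 scale; shapes give the conditions, red those with more and blue those with less JAG1. SERPINB2 falls from left to right (r −0.910) and SERPINB9 shows no such order (r −0.267).

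For SERPINB9 the same relation had r −0.267 (exact permutation p = 0.445) and rho −0.257 (exact permutation p = 0.402), and r was −0.115 without the same 2 libraries. Of the same 12706 genes, 78.7% had an r at least as far from 0. SERPINB6 had r 0.469 (exact permutation p = 0.0212, adjusted p = 0.0743) and rho 0.602 (exact permutation p = 0.00943, adjusted p = 0.0330), and r was 0.508 without the 2 libraries, while 61% of genes had an r as far from 0. SERPINE2 had r −0.606 and rho −0.577 (exact permutation, adjusted p = 0.135 and 0.0825), and r was −0.352 without them, while 47% of genes had an r as far from 0. The r of SERPINB8, SERPINB7 and SERPINB1 were 0.494, −0.451 and 0.417 (exact permutation, adjusted p = 0.146, 0.151 and 0.151), and their rho 0.426, −0.373 and 0.534 (adjusted p = 0.175, 0.247 and 0.0764). Without the 2 libraries their r were 0.586, −0.294 and 0.438.

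SERPINB7 (Entrez gene 8710), megsin, was close to the detection limit, with 9 to 111 reads per library. It held 2.93, 3.18 and 6.51 CPM with the rescue plasmid against 2.28, 0.659 and 3.13 CPM with the empty one. The groups overlapped, and the highest of the 18 libraries was rescue replicate 3. The log2 fold change was 1.05 (95% interval −0.22 to 2.32, edgeR adjusted p = 0.222), and 1.52 without Jag1KO + ctrl replicate 3 (edgeR adjusted p = 0.0802). In Jag1WT it held 1.83, 1.73 and 1.37 CPM against 1.57, 1.93 and 1.05 CPM in Jag1KO, and in siCtrl 1.41, 1.42 and 0.685 CPM against 1.19, 0.649 and 0.979 CPM in siJag1. Those log2 fold changes were 0.10 (−0.61 to 0.81, edgeR adjusted p = 0.954) and 0.34 (−0.56 to 1.23, edgeR adjusted p = 0.969), with overlapping groups. The siRNA value was 0.12 without siJag1 replicate 2 (edgeR adjusted p = 0.986).

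SERPINB5 (Entrez gene 5268), maspin, a serpin without known protease inhibition, was below the filter of the main test, with 0 of 18 libraries above 1 CPM. It had 6, 6 and 4 reads in siJag1 and 0, 0 and 2 reads in siCtrl, and these groups did not overlap. The Jag1WT libraries had 1, 2 and 2 reads, those of Jag1KO and of the rescue 1, 0 and 0 each, and those of Jag1KO + ctrl 0 reads each, which allows up to 3 reads per library. Those groups overlapped in the other comparisons. Tested without a filter on low counts, SERPINB5 was not called in siCtrl against siJag1 (unadjusted p = 0.0247, edgeR adjusted p = 0.890).

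SERPINE2 (Entrez gene 5270), protease nexin-1, is the secreted clade E member and inhibits thrombin and urokinase. It held 162, 145 and 153 CPM in Jag1WT against 156, 155 and 143 CPM in Jag1KO, and the groups overlapped. Its log2 fold change there was 0.02 (95% interval −0.20 to 0.23, edgeR adjusted p = 0.973). The rescue libraries held 139, 213 and 196 CPM against 193, 98.4 and 205 CPM (log2 fold change 0.14, −0.53 to 0.81, edgeR adjusted p = 0.753), and the value was 0.33 without Jag1KO + ctrl replicate 3 (edgeR adjusted p = 0.424). The siCtrl libraries held 165, 133 and 158 CPM against 217, 113 and 235 CPM in siJag1 (log2 fold change −0.30, −0.87 to 0.28, edgeR adjusted p = 0.969), and the value was −0.56 without siJag1 replicate 2 (edgeR adjusted p = 0.190). The groups overlapped in all 3, with siJag1 and Jag1KO + ctrl each holding 1 low library, replicate 2.

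Beyond the 8 genes the table held 21 other serpins, of which 6, 6 and 5 could be tested in the knockout, rescue and siRNA comparisons, and 0 were called in any by edgeR. At an unadjusted p below 0.05 there were 1, 3 and 0, where the shares over all genes were 8.82%, 30.8% and 3.83%. SERPINA1, alpha-1-antitrypsin, had log2 fold changes of 0.40 (edgeR adjusted p = 0.329), 0.89 (0.136) and 0.06 (0.985). The collagen chaperone SERPINH1 had 0.02, 0.56 (edgeR adjusted p = 0.126) and 0.23, and heparin cofactor SERPIND1 0.57, −0.83 (edgeR adjusted p = 0.186) and 0.06. Neuroserpin, SERPINI1, had −0.0027, 0.33 and −0.13. SERPINA3 had −0.56 and 1.39 (edgeR adjusted p = 0.675 and 0.275) and was below the filter in the siRNA comparison.

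Of a list of 22 proteases drawn up around the targets of these serpins, 18 were in the table and 12 could be tested. A place on the list does not mean that any of these serpins inhibits the protease. Granzyme B (GZMB), the target of SERPINB9, had at most 1 read in any library, as had proteinase 3 (PRTN3). One protease, the lysosomal cysteine protease cathepsin B (CTSB), was called higher in Jag1WT than in Jag1KO, where 0.704% of all genes were called. Its log2 fold change was 0.72 ± 0.11 (SE, edgeR adjusted p = 0.0322). In the rescue and siRNA comparisons CTSB had 0.06 and 0.19 (edgeR adjusted p = 0.807 and 0.969), and 0 of 12 were called there. Unadjusted, 4 of 12 had a p below 0.05 in the knockout comparison, all higher, 5 in the rescue, 3 of them higher, and 0 with the siRNA. Over all genes the shares were 8.82%, 30.8% and 3.83%. Cathepsin L (CTSL) had 0.49, 0.46 and 0.04 (edgeR adjusted p = 0.0667, 0.145 and 0.993). FURIN, the target of SERPINB8, had 0.54, 0.40 and 0.32 (edgeR adjusted p = 0.354, 0.309 and 0.969), and the inflammatory caspase CASP4 −0.19, 0.42 and −0.0062.

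Of 16 genes of plasminogen activation and the receptors cleaved by its proteases, 13 could be tested, and the 2 called were receptors. Both were called in Jag1WT against Jag1KO, where 0.704% of all genes were called. F2RL1, which trypsin-like proteases activate, rose in Jag1WT by 0.86 ± 0.10 (log2, SE, edgeR adjusted p = 0.0130), and F2R, the thrombin receptor, by 0.82 ± 0.11 (edgeR adjusted p = 0.0170). In the rescue F2RL1 had 0.86 (edgeR adjusted p = 0.107) and F2R −0.02 (0.923), and with the siRNA 0.65 (0.513) and 0.37 (0.969), and 0 of 13 were called in either. Unadjusted, 4, 4 and 2 of 13 had a p below 0.05, where the shares over all genes were 8.82%, 30.8% and 3.83%. In the mean of the 3 comparisons F2RL1 was called (0.78, edgeR adjusted p = 0.000938), as were 0.937% of all genes. The abundant plasminogen binders ENO1 and ANXA2 had log2 fold changes of 0.06 and −0.19 in the knockout, −0.40 and −0.12 in the rescue and 0.10 and 0.01 in the siRNA comparison, none of them called.

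The neighbours of the clade B cluster on chromosome 18 gave 5 tested genes of 8 in the table, and 0 were called in the 3 comparisons. Unadjusted, 0, 3 and 0 had a p below 0.05, where the shares over all genes were 8.82%, 30.8% and 3.83%. KDSR, an enzyme of ceramide synthesis, had −0.0039, 0.50 (edgeR adjusted p = 0.142) and −0.10, and VPS4B, an ATPase of the ESCRT machinery, 0.16, 0.40 (edgeR adjusted p = 0.154) and −0.01. The phosphatase PHLPP1 had −0.01, −0.79 (edgeR adjusted p = 0.107) and −0.13, and HMSD −0.33, −0.0034 and 0.05. The remaining tested neighbour, the apoptosis inhibitor BCL2, had −0.45, −0.25 and −0.41. In the rescue 2 of the 5 were positive and 3 negative.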

How the data were processed

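RNA was measured in 18 libraries of 6 conditions, 3 replicates each, taken from the labels. Libraries were stranded mRNA preparations, and the authors aligned reads to hg38 and counted uniquely mapped reads per gene (featureCounts in the submitters' processing notes, aligner not given in the sources used here). The deposited counts are whole reads per gene without normalization. The deposited CPM are a signal that the authors obtained by dividing counts by the TMM library size (edgeR 3.28.0), and the deposited RPKM divide these by gene length. Among the RPKM columns, 3 spelled siJaq1 matched no label and were not used. Depth was 10330581 to 18327890 counts, and the limit that a count of 0 allows (3 counts) covers counting error only, while fitted intervals cover the spread between libraries. Genes without a symbol (292 rows) were kept in library sizes. No replicate was a copy of another (chi-square per degree of freedom 7.34 to 106).

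Counts were tested with the quasi-likelihood test of edgeR 4.0.16 (R 4.3.3), TMM, for genes above 1 CPM in at least 3 of 6 (joint fits: 9 of 18) libraries. Genes with a Benjamini-Hochberg adjusted p below 0.05 over all genes tested and a fold above 1.5 were called. The joint fit tested the mean of the 3 comparisons and, on 2 degrees of freedom, their equality. DESeq2 1.42.0, limma 3.58.1 on log2(CPM + 1), DESeq2 size factors, no filter, all 18 libraries in 1 fit, a replicate block and leaving out each library were alternatives. Scripts were tested on simulated data. Cell cycle genes are those shipped with Seurat 5.3.0, and relations were tested by all 46656 permutations within groups. Promoters came from RefSeq (GRCh38.p14), and protein sequences were not used here. The labels call the replicates biological without naming cultures or days, so p-values measure the spread between these libraries. Replicate numbers paired siCtrl with siJag1 (correlations of deviations 0.542, 0.522 and 0.263) and with Jag1WT (0.594, 0.711 and 0.209), judged from the data. The other comparisons were taken as unpaired, since each had at least 1 correlation below 0.1. Those of Jag1WT with Jag1KO were 0.632, 0.667 and −0.014.

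Shares of genes with a cell cycle relation as far from 0 are descriptions. The named genes are the members, JAG1, the other serpins above the filter, from each list the genes called and the 4 with the highest CPM, and the 5 most and 3 least like SERPINB9. One gene that this rule names is not reported here. A planned test of SERPINB9 between control groups is given as values only, since its choice used those libraries. Members and lists were chosen with earlier results of these data known. The within-group relation could be computed for 7 of the 8 members.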

Additional observations from a re-analysis of the deposited data

How the results depend on the processing

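The SERPINB9 log2 fold changes kept their sign under every alternative in the 3 comparisons. Over the fits without 1 library they ranged from 1.06 to 1.28 (knockout), 1.17 to 1.61 (rescue), 0.99 to 1.20 (siRNA) and 1.15 to 1.29 (mean). Of 441 values of single genes under alternatives, 408 kept direction and side of the threshold, 4 became called, all SERPINB2, and 29 changed sign, none of them called. The count of relatives called went from 0 to 1, SERPINB2 each time, in the rescue with all 18 libraries in 1 fit (1), for the mean and for the difference without the 3 libraries apart in cell cycle level (1 each, an alternative chosen after seeing the data, with 6.82% and 34.6% of all genes called), and for the difference with the replicate block (1, edgeR adjusted p = 0.0435, with 11% of all genes called). Leaving out 1 library the counts ranged from 0 to 1 in the rescue, for the mean, for the difference and in Jag1KO + ctrl against Jag1KO, and the 1 was SERPINB2 without Jag1KO + ctrl replicate 3 each time. In the knockout and siRNA comparisons they stayed at 0. Those 3 left-out libraries were picked by the cell cycle level, with which SERPINB2 is correlated. With S phase genes only, 2 members (SERPINB2 and SERPINE2, adjusted p = 0.0102 each, exact permutation) passed instead of 1, where 9% and 22.1% of 12706 other genes had an r as far from 0, while the alternative without the 2 farthest libraries gave r only.

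The replicate block changed no other call on a member. In the siRNA comparison, whose groups were paired, it gave log2 fold changes of 0.26 for SERPINB1 and 0.22 for SERPINB6. Over the alternatives that kept every library, the block among them, their lowest adjusted p were 0.580 and 0.596 (edgeR, DESeq2 or limma). Over all genes the block moved the calls from 91 to 283 in the knockout and from 1 to 3 in the rescue. It moved them from 120 to 601 for the mean and from 531 to 1406 for the difference, fits that include the paired groups. In the knockout comparison replicates 1 and 2 had correlations of deviations of 0.632 and 0.667 and replicate 3 had −0.014, so pairing there was not settled.

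Sign changes were of small values, except for SERPINB2 in the knockout comparison. Its log2 fold change was −0.56 with every library and 0.023 without Jag1KO replicate 1. With all 18 libraries in 1 fit SERPINB1 and SERPINB6 had −0.0086 and −0.0106 in the rescue, and the mean of SERPINB8 was −0.024 without the 3 libraries. Without 1 library the log2 fold changes in the knockout comparison ranged from −0.45 to 0.12 for SERPINB8, −0.85 to 0.023 for SERPINB2, −0.087 to 0.30 for SERPINB7 and −0.019 to 0.054 for SERPINE2. In the rescue they ranged from −0.063 to 0.12 for SERPINB1, −0.063 to 0.11 for SERPINB6 and −0.13 to 0.33 for SERPINE2, and in the siRNA comparison from −0.23 to 0.12 for SERPINB8. For the mean they ranged from −0.075 to 0.12 for SERPINB8 and −0.14 to 0.0092 for SERPINE2, and for SERPINB9 in Jag1KO + ctrl against Jag1KO from −0.36 to 0.073. The causes were not tested. SERPINB7 passed the filter in only 3 of the 6 siRNA fits without 1 library. Depth limits SERPINB5 and SERPINB7, and 3 libraries per group limit the other relatives, whose intervals are given beside their values.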
